A study of Homo sapiens with 16 samples.

Results

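ATF4 is the transcription factor through which mammalian cells answer a shortage of amino acids, and the 10 genes described here are ATF4 itself and genes of the response it drives: ATF3, DDIT3, TRIB3, ASNS, PHGDH, PSAT1, SLC7A11, CHAC1 and VLDLR. They were taken by symbol, as every probe set annotated to exactly 1 of these genes. This gave 17 of the 54675 probe sets on the array and 10 of the 19775 genes analysed. Each gene was followed mainly through its brightest probe set.

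When amino acids run short, or when the endoplasmic reticulum is overloaded, kinases phosphorylate the translation factor eIF2. Most protein synthesis then slows, while the ATF4 mRNA is translated more. ATF4 protein binds composite C/EBP-ATF sites and raises genes that make, import and charge amino acids, together with factors such as CHOP (DDIT3) and TRIB3 that limit or end the response. Because ATF4 is controlled largely at translation, its mRNA level does not by itself give the amount of ATF4 protein, which was not measured.

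The cells were SW480, a human colorectal cancer line with a truncated APC protein, so that beta-catenin, the effector of Wnt signalling, is not degraded normally. The series asks how the transcriptional co-activator TAZ takes part in Wnt signalling, and it profiled total RNA from unstimulated cells on 16 Affymetrix arrays, 4 for each of 4 groups. The siGFP group (control) carried an empty vector and received a control siRNA. The siTAZ group carried the empty vector and received an siRNA against TAZ (gene WWTR1), and the sibcat group carried the empty vector and received an siRNA against beta-catenin (gene CTNNB1). The APC group had a stable wild-type APC construct in place of the empty vector, together with the control siRNA. All 4 groups were therefore SW480 cells that had been transfected with an siRNA. Each target had a single siRNA condition, and the labels do not say whether the APC cells are 1 clone. The replicates, lettered A to D, are called biological in the labels without mention of separate cultures; the p-values therefore reflect sample-to-sample spread alone, and part or all of it could be technical.

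Levels are log2 values, where a difference of 1 is a doubling. Arrays give no read depth, and precision is limited by there being 4 arrays a group. The targeted genes were lower: WWTR1 fell by 3.37 in siTAZ and CTNNB1 fell by 2.96 in sibcat (limma adjusted p = 8.87e-15 and 2.18e-12). Weaker CTNNB1 probe sets fell by 3.22 and 0.40 in sibcat. WWTR1 also rose by 0.70 in sibcat and 0.73 in APC (limma adjusted p = 7.45e-07 and 5.06e-07). A weaker WWTR1 probe set rose there too, by 0.52 and 0.84, and another was not called (-0.22 and 0.07). CTNNB1 fell by 0.38 in APC (limma adjusted p = 0.0126). In APC cells the brightest probe set of the APC gene was 0.08 higher (adjusted p = 0.709). A weaker one rose by 0.40, and a dim one rose by 1.11, from 3.96 in siGFP to 5.07. The remaining ones, with differences of -0.0 and 0.14, were not called. Which of these probe sets lie in the introduced sequence was not known. Of 11 epithelial markers, 8 lay above the median probe set level of 5.09 in every group, with EPCAM between 12.63 and 12.92. The intestinal markers among them were split. CDX1, CDX2 and VIL1 lay above that level in every group, with lowest group means of 5.85, 5.59 and 5.56, while KRT20, CDH17 and LGALS4 lay below it in every group. The summed epithelial level was 15.25 to 15.30 in siGFP, 15.12 to 15.17 in siTAZ, 15.25 to 15.27 in sibcat and at most 15.06 in APC, so siTAZ and APC lay below siGFP. Against siGFP, 3 of the 11 fell and 1 rose in siTAZ, 1 fell and 2 rose in sibcat, and 5 fell and 0 rose in APC; among them CDH1 fell by 1.13 in siTAZ, VIL1 rose by 1.02 in sibcat and KRT8 fell by 0.52 in APC. The part of these shifts in the results was not tested. Of 9 fibroblast and endothelial markers, COL1A1, PECAM1 and PDGFRB also lay above the median level in every group, COL1A1 at 6.83 to 6.99. Lying above that level therefore does not by itself separate epithelial from other markers. The summed level of the 9 ran from 8.20 to 8.55 over all groups. That of 4 leukocyte markers was 6.28 to 6.53 in siGFP, 6.40 to 6.63 in siTAZ, 6.93 to 7.05 in sibcat and 6.40 to 6.51 in APC. It moved with CD14, which rose from 4.60 to 6.24 in sibcat, while the pan-leukocyte gene PTPRC stayed between 3.01 and 3.15; its part in the results was not tested. RNA quality, read as the 3' minus 5' signal of ACTB, was 1.90 to 2.26 in siGFP, 2.25 to 3.09 in siTAZ, 2.07 to 2.56 in sibcat and 1.74 to 2.39 in APC. With this measure as a covariate, the counts of the 10 genes called against siGFP were 7 in siTAZ, 10 in sibcat and 10 in APC, the same as without it. The same signal difference for GAPDH was 0.27 to 0.42 in siGFP and 0.40 to 0.65 in siTAZ. Both measures were highest in siTAZ, so the covariate cannot fully separate RNA quality from that group.

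The sequences shown are the promoters of the 3 genes whose start region holds TGATGNAA (N is any base), the core letters of the composite C/EBP-ATF element. RefSeq start regions (GRCh38.p14, 250 bases before to 50 after the start) were found for 9 of the 10 genes, all but SLC7A11, in 15 windows. TGATGNAA, searched on both strands, was present for ASNS, ATF3 and CHAC1, that is in 3 of the 15 windows, against 3.62% of all 35116 windows. The ASNS bases lie 68 to 61 before the start on the coding strand (chr7:97872409-97872658, minus strand). Those of ATF3 lie 191 to 184 before it on the coding strand (chr1:212565157-212565406, plus strand), and those of CHAC1 lie 209 to 202 before it and read TGATGCAA on the opposite strand (chr15:40953221-40953470, plus strand). The 250 bases before each start are given 5′ to 3′ with the match in capitals.
ASNS: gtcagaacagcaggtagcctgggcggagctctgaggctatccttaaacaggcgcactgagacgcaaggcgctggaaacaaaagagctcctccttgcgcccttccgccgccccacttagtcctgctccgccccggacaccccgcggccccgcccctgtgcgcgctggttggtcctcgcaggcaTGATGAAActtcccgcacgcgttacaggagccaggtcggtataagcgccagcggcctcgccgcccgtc
ATF3: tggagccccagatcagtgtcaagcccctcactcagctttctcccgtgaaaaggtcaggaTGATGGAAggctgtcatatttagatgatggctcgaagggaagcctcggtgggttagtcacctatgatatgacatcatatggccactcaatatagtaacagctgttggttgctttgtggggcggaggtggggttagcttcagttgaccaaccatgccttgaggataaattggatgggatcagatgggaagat
CHAC1: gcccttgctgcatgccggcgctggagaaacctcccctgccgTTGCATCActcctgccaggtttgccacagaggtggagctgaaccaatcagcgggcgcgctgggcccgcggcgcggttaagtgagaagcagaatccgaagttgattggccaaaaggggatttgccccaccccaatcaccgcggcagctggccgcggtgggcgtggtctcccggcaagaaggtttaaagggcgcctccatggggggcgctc
None of the 3 matches overlapped a match to the other motifs searched. The cyclic AMP response element TGACGTCA was found for 0 of the 9 genes, against 3.1% of the analysed genes with a window (1.85% of all windows). TGANNNNGC, the core of the antioxidant response element, was searched for comparison and was found for 4 of the 9 genes, ASNS, PHGDH, TRIB3 and VLDLR, against 50% of the analysed genes with a window (41.8% of all windows). A match is a description of the letters and does not show binding.

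Against siGFP, all 10 genes fell in sibcat cells and all 10 fell in APC cells, by the limma fit over all 19775 genes at a Benjamini-Hochberg adjusted p under 0.05. In all genes 17.3% fell and 18.6% rose in sibcat, and 17.1% fell and 16.6% rose in APC. In siTAZ cells 5 of the 10 fell (ATF4, ATF3, ASNS, PSAT1 and CHAC1), 2 rose (SLC7A11 and TRIB3) and 3 were not called (DDIT3, PHGDH and VLDLR), where 13.1% of all genes fell and 17% rose. The median log2 difference of the 10 genes was -0.27 in siTAZ, -0.69 in sibcat and -0.72 in APC, against medians of all genes between 0.00 and 0.015. The 3 comparisons share the siGFP arrays. The 10 genes were chosen with earlier results of these data known, so their counts beside the shares of all genes are a description and not a test. All genes include dim ones, while the brightest probe set of each of the 10 averaged above the median level of 5.09. With a filter on dim probe sets, which all 10 passed, a larger share of genes was called in every comparison. The shares of all genes, here and below, therefore understate how often genes that pass such a filter were called. The arrays did not overlap, with the 4 treated arrays all below the 4 siGFP arrays, for 5 of the 10 genes in siTAZ (12.7% of all genes), 10 in sibcat (15.8%) and 10 in APC (15.7%). RNA was taken from whole cultures, so fewer cells of a kind and less RNA per cell cannot be told apart.

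**Figure D1:**
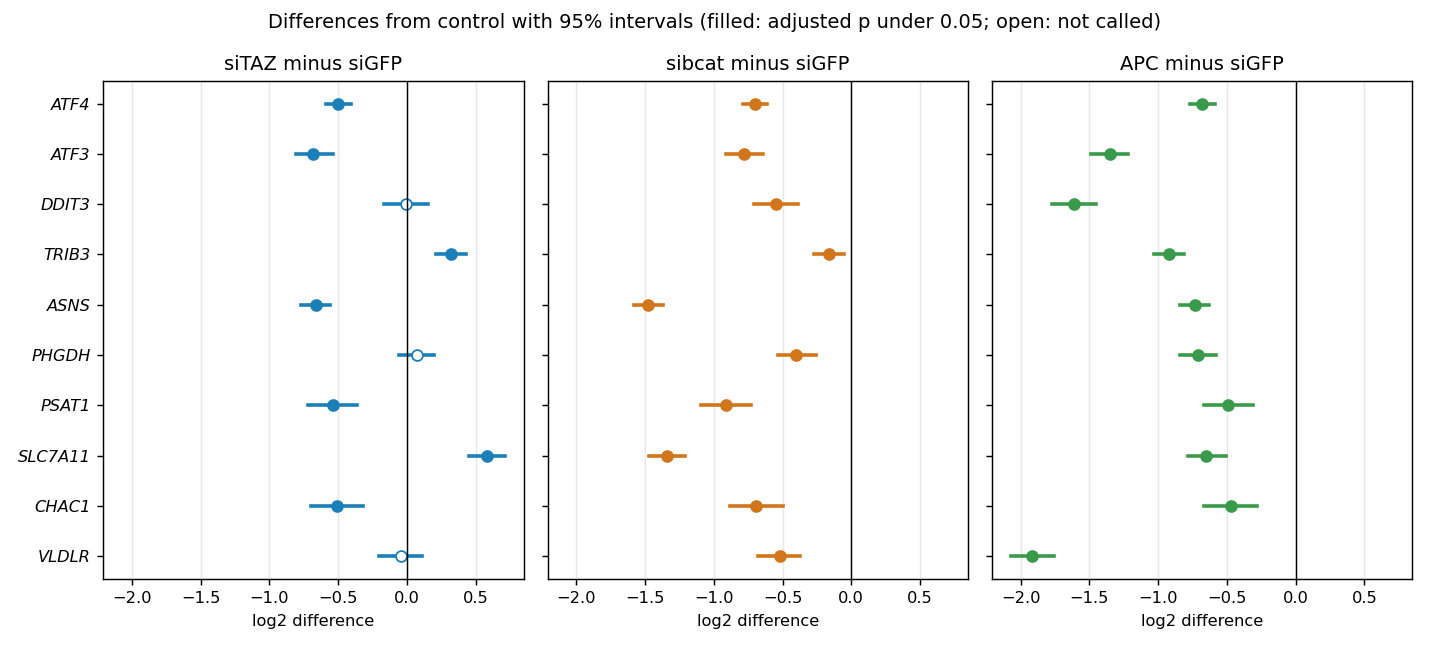
Log2 difference from siGFP (horizontal axis) of the 10 genes in siTAZ, sibcat and APC cells; points are limma estimates from 4 arrays per group, lines are 95% intervals, and filled points passed the adjusted p threshold of 0.05. All points lie left of 0 in sibcat and APC, while in siTAZ SLC7A11 (0.58) and TRIB3 (0.32) lie right of it.

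ATF4 mRNA was lower in all 3 treated groups, and siTAZ cells kept more of it than sibcat or APC cells. Its level was 11.94, 11.91, 11.89 and 11.86 in siGFP arrays A to D. In siTAZ it was 11.43, 11.44, 11.35 and 11.39, in sibcat 11.21, 11.21, 11.18 and 11.21, and in APC 11.27, 11.17, 11.25 and 11.20. Every siGFP array was above every siTAZ array, and every siTAZ array was above every sibcat and APC array, while the last 2 groups overlapped. The fall was 0.50 in siTAZ (SE 0.043, limma adjusted p = 1.44e-07), 0.70 in sibcat (adjusted p = 1.22e-09) and 0.68 in APC (adjusted p = 1.54e-09), which left 70.8%, 61.7% and 62.5% of the control signal. APC and sibcat differed by 0.02 (95% interval -0.07 to 0.11, adjusted p = 0.765), and siTAZ was higher than sibcat by 0.20 (adjusted p = 0.00117). ATF4 has only 1 probe set of its own on the array.

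ATF3, a stress-induced member of the same bZIP family that is itself an ATF4 target, showed its deepest fall in APC cells. The siGFP arrays read 7.53, 7.53, 7.35 and 7.64. The siTAZ arrays read 6.87, 6.83, 6.84 and 6.80, the sibcat arrays 6.83, 6.64, 6.69 and 6.78, and the APC arrays 6.24, 6.20, 6.09 and 6.11. The siTAZ and sibcat arrays overlapped, and the APC arrays lay below both. ATF3 fell by 0.68 in siTAZ (SE 0.063, adjusted p = 3.49e-07), 0.78 in sibcat (adjusted p = 3.59e-08) and 1.35 in APC (adjusted p = 2.72e-11). APC was below sibcat by 0.58 (log2 difference -0.58, adjusted p = 9.00e-07), and siTAZ and sibcat differed by 0.10 (interval -0.03 to 0.23, adjusted p = 0.259). A weaker ATF3 probe set also fell in the 3 groups, by 0.45, 0.55 and 0.66 (adjusted p over all probe sets 0.0244, 0.00578 and 0.0013), and the dim one, at 3.61 to 4.07, was not called.

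DDIT3, which encodes CHOP, the factor linked to cell death in prolonged stress, was lowest in APC cells. Its level was 8.70, 8.70, 8.69 and 8.45 in siGFP and 8.71, 8.69, 8.57 and 8.53 in siTAZ. It was 8.18, 8.18, 7.99 and 7.99 in sibcat and 6.90, 7.05, 7.14 and 7.0 in APC. The siGFP and siTAZ arrays overlapped, the sibcat arrays lay below them, and the APC arrays lay lower still. The difference was -0.01 in siTAZ (SE 0.075, 95% interval -0.17 to 0.15, adjusted p = 0.946), while DDIT3 fell by 0.55 in sibcat (adjusted p = 1.52e-05) and by 1.61 in APC (adjusted p = 2.62e-11), to 32.7% of the control signal. APC and sibcat themselves differed by -1.06 (adjusted p = 3.99e-09).

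TRIB3, a pseudokinase that binds ATF4 and dampens its activity, rose in siTAZ and fell in APC. The siGFP arrays read 9.25, 9.30, 9.40 and 9.36, the siTAZ arrays 9.63, 9.60, 9.74 and 9.62, the sibcat arrays 9.10, 9.17, 9.19 and 9.21, and the APC arrays 8.38, 8.36, 8.47 and 8.42. No pair of groups overlapped, but the highest sibcat array (9.21) was close to the lowest siGFP array (9.25). The rise in siTAZ was 0.32 (SE 0.051, adjusted p = 1.07e-04) and the fall in APC was 0.92 (adjusted p = 2.48e-10). The fall in sibcat was 0.16 (adjusted p = 0.0202) and lost its call without siGFP C (adjusted p = 0.0704), without siGFP D (0.0544) or without sibcat A (0.0666). The weaker TRIB3 probe set was not called in any of the 3 groups (differences of -0.10, -0.24 and -0.27), and the mean of both probe sets was 0.11 in siTAZ (adjusted p = 0.289), so the rise rests on the brighter probe set.

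**Figure D2:**
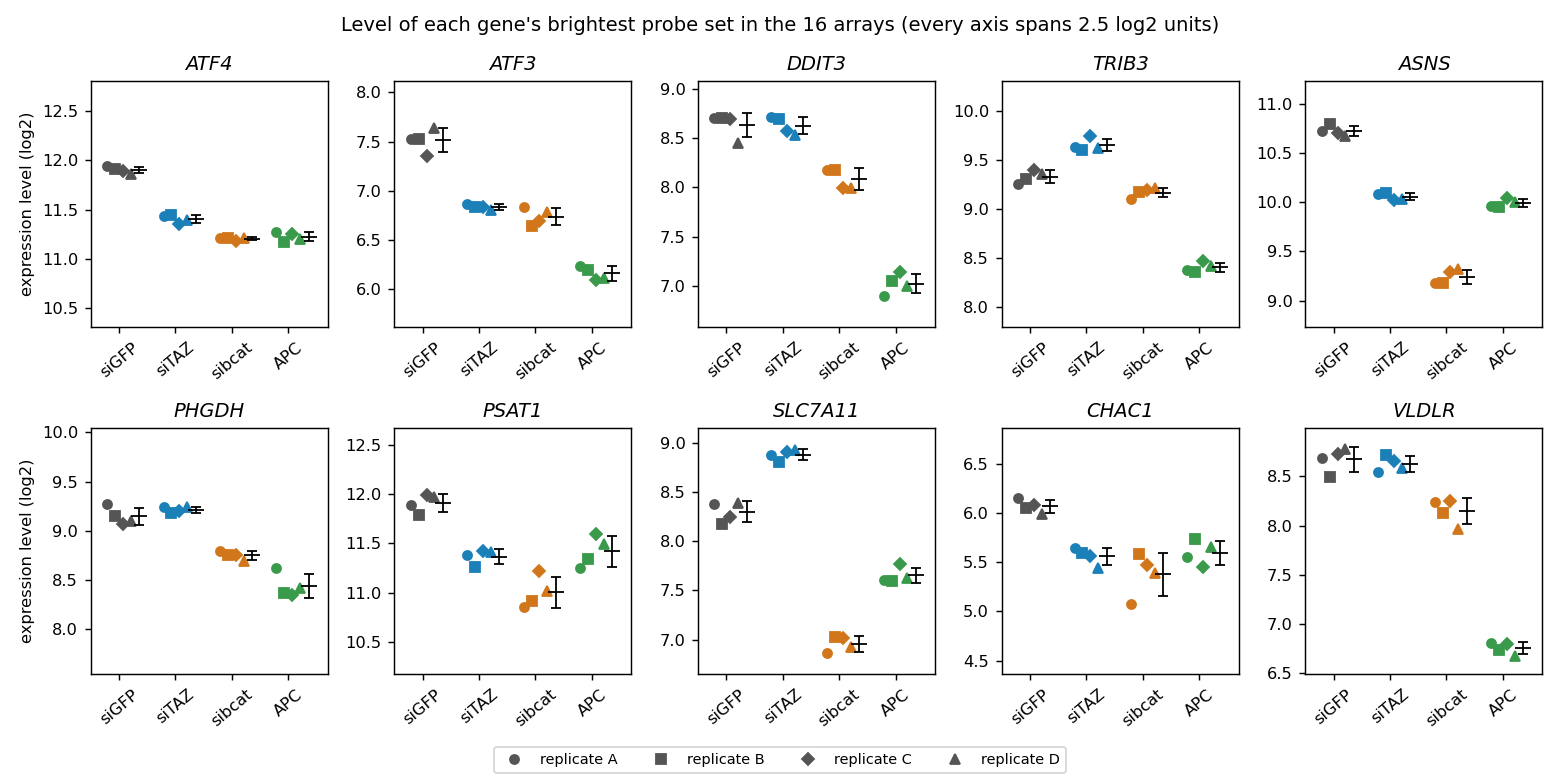
Log2 level (vertical axis, spanning 2.5 units in every panel) of the brightest probe set of the 10 genes in the 4 groups; each symbol is 1 array, its shape the replicate letter, and the bars are the mean ± SD of 4 arrays. Each siGFP array lies above each sibcat and APC array in all 10 panels; DDIT3 and VLDLR are lowest in APC, and ASNS and SLC7A11 are lowest in sibcat.

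ASNS makes asparagine from aspartate and glutamine and is the standard readout of amino acid limitation. It read 10.72, 10.79, 10.70 and 10.67 in siGFP. The siTAZ arrays read 10.08, 10.09, 10.02 and 10.03, the APC arrays 9.96, 9.95, 10.04 and 10.00, and the sibcat arrays 9.18, 9.18, 9.29 and 9.32. The siTAZ and APC arrays overlapped below siGFP, and the sibcat arrays lay lowest. ASNS fell by 1.48 in sibcat (SE 0.049, adjusted p = 8.26e-13), to 35.9% of the control signal, and had rank 114 from the lowest difference of 19775 genes. It fell by 0.66 in siTAZ (adjusted p = 2.06e-08) and by 0.73 in APC (adjusted p = 2.92e-09). The sibcat level was below APC by 0.75 (adjusted p = 1.61e-09) and below siTAZ by 0.81 (adjusted p = 6.62e-10), while siTAZ and APC differed by 0.07 (interval -0.04 to 0.17, adjusted p = 0.311). The second ASNS probe set stood between 2.45 and 2.85 on all arrays, below the median level of 5.09, and was not called.

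PHGDH and PSAT1 catalyse the first steps of serine synthesis from a glycolytic intermediate. PHGDH ran from 9.07 to 9.27 in siGFP, 9.18 to 9.24 in siTAZ, 8.69 to 8.80 in sibcat and 8.35 to 8.62 in APC. The siGFP and siTAZ arrays overlapped, the sibcat arrays lay below them and the APC arrays were lowest. PHGDH fell by 0.40 in sibcat (SE 0.062, adjusted p = 6.56e-05) and by 0.71 in APC (adjusted p = 9.02e-08), and the difference in siTAZ was 0.07 (interval -0.06 to 0.20, adjusted p = 0.494). APC was below sibcat, with a difference of -0.31 (adjusted p = 4.73e-04).

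PSAT1, the aminotransferase that follows PHGDH, had a different order. It ran from 11.79 to 11.99 in siGFP, 11.26 to 11.42 in siTAZ, 11.25 to 11.60 in APC and 10.85 to 11.22 in sibcat, so siTAZ and APC overlapped and sibcat lay below both. PSAT1 fell by 0.54 in siTAZ (SE 0.086, adjusted p = 1.04e-04), 0.91 in sibcat (adjusted p = 2.32e-07) and 0.49 in APC (adjusted p = 2.23e-04). In every group replicates C and D averaged higher than A and B, by 0.14 in siGFP, 0.09 in siTAZ, 0.24 in sibcat and 0.25 in APC. Within A and B alone the PSAT1 falls were 0.52, 0.96 and 0.54, and within C and D alone 0.57, 0.86 and 0.43. The weaker PSAT1 probe set fell by 1.03 in siTAZ and 1.16 in sibcat (adjusted p over all probe sets 4.72e-05 and 8.10e-06), but its difference of -0.30 in APC was not called (adjusted p = 0.16).

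SLC7A11, the cystine and glutamate exchanger that supplies cysteine for glutathione, moved in opposite directions with the 2 siRNAs. It read 8.38, 8.17, 8.25 and 8.39 in siGFP and 8.87, 8.80, 8.91 and 8.93 in siTAZ. It read 6.86, 7.03, 7.02 and 6.92 in sibcat and 7.61, 7.60, 7.77 and 7.63 in APC. No groups overlapped, and the order was siTAZ, siGFP, APC, sibcat, with each neighbour called. SLC7A11 rose by 0.58 in siTAZ (SE 0.063, adjusted p = 1.96e-06), fell by 1.34 in sibcat (adjusted p = 4.58e-11) to 39.5% of the control signal, and fell by 0.65 in APC (adjusted p = 3.55e-07). The siTAZ and sibcat groups, compared directly, differed by 1.92, or 3.78-fold (adjusted p = 3.45e-13). A second well-lit probe set gave 0.62, -1.34 and -0.64 for siTAZ, sibcat and APC, all called, and the dim remaining one gave 0.24, -0.59 and -0.15, with only sibcat called (adjusted p over all probe sets 9.77e-04).

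CHAC1 breaks down glutathione and is among the more stress-specific ATF4 targets. It ran from 5.99 to 6.15 in siGFP, 5.44 to 5.64 in siTAZ, 5.07 to 5.58 in sibcat and 5.45 to 5.73 in APC. Every treated array lay below every siGFP array, and the 3 treated groups overlapped with each other. CHAC1 fell by 0.51 in siTAZ (SE 0.092, adjusted p = 3.41e-04), 0.69 in sibcat (adjusted p = 1.15e-05) and 0.47 in APC (adjusted p = 5.71e-04). APC and sibcat differed by 0.22 (interval 0.02 to 0.41, adjusted p = 0.0693), a difference that was called without sibcat B (adjusted p = 0.0202) or without APC C (0.0381). The siTAZ and sibcat difference of 0.18 (adjusted p = 0.15) was also called without sibcat B (0.0472). Its levels lie little above the median probe set level of 5.09, where background makes up more of the signal.

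VLDLR, a receptor for triglyceride-rich lipoproteins and reelin, gave the largest difference from siGFP among the 10 genes. It read 8.69, 8.49, 8.73 and 8.78 in siGFP, 8.54, 8.72, 8.66 and 8.59 in siTAZ, 8.24, 8.13, 8.25 and 7.97 in sibcat, and 6.81, 6.74, 6.80 and 6.68 in APC. The siGFP and siTAZ arrays overlapped, the sibcat arrays lay below them, and the APC arrays were lowest by a wide margin. VLDLR fell by 1.92 in APC (SE 0.074, adjusted p = 2.17e-12), or 3.77-fold, with rank 129 from the lowest difference of all genes. It fell by 0.52 in sibcat (adjusted p = 2.06e-05) and differed by -0.04 in siTAZ (interval -0.20 to 0.11, adjusted p = 0.732). APC and sibcat differed by -1.39 (adjusted p = 1.14e-10).

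**Figure D3:**
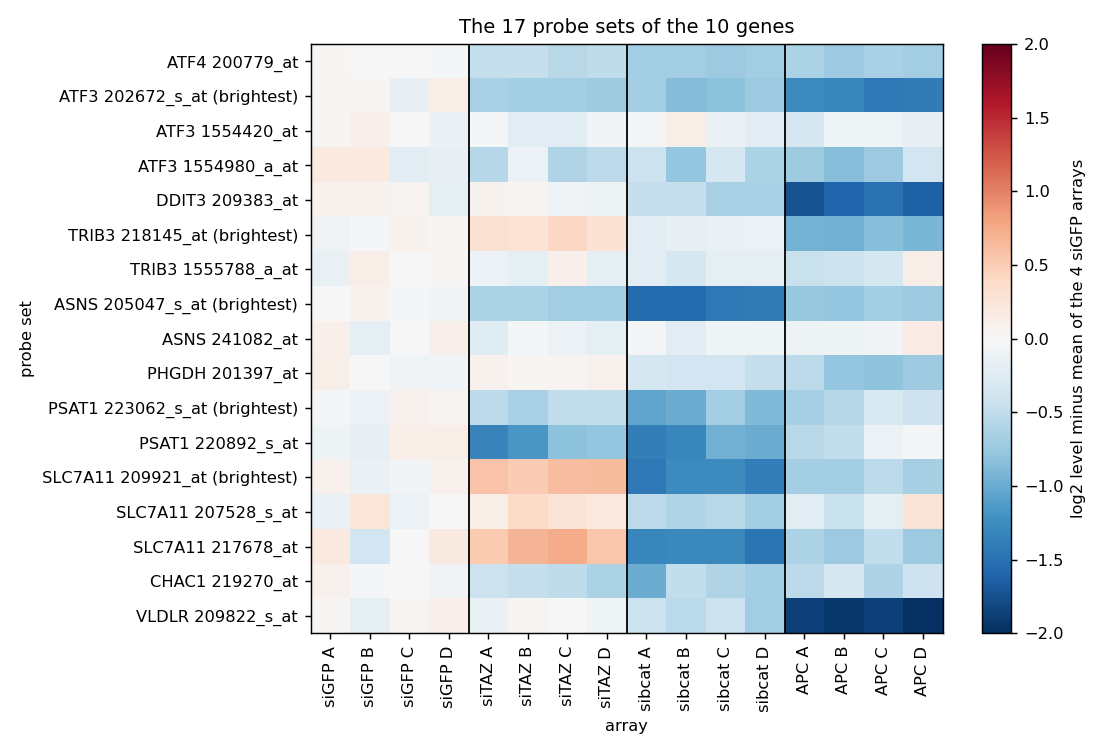
Log2 level of the 17 probe sets (rows) in the 16 arrays (columns) minus the mean of the 4 siGFP arrays; blue is lower, red is higher, and the brightest probe set is marked where a gene has several. Rows of SLC7A11 are red in siTAZ and blue in sibcat, and the dim second probe set of ASNS stays near 0 where the brightest fell by 1.48 in sibcat.

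Counted by probe set in a fit over all 54675, 3 of the 17 rose and 7 fell in siTAZ (10.5% and 9.77% of all probe sets), 0 rose and 14 fell in sibcat (13.4% and 12.2%), and 0 rose and 12 fell in APC (12.7% and 11.3%). Probe sets of a gene share its RNA and are not independent.

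Compared with each other, the sibcat and APC cells lowered the same 10 genes to different degrees. APC was higher than sibcat for 3 genes, ASNS, SLC7A11 and PSAT1, and lower for 5, ATF3, DDIT3, TRIB3, PHGDH and VLDLR; ATF4 and CHAC1 were not called (20.3% of all genes rose and 21.7% fell in this comparison). The amino acid enzymes did not all move one way here, as PHGDH was lower in APC and PSAT1 higher (0.42, adjusted p = 6.84e-04). siTAZ was higher than sibcat for 8 genes and lower for 0, with ATF3 and CHAC1 not called (18.9% of all genes rose and 17.8% fell). siTAZ was higher than APC for 7 genes and lower for 0, with ASNS, PSAT1 and CHAC1 not called (22.4% rose and 19.9% fell). Against APC, the siTAZ level was higher by 1.87 for VLDLR, 1.60 for DDIT3, 1.24 for TRIB3 and 1.23 for SLC7A11 (adjusted p from 1.86e-12 to 5.88e-11).

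Other genes, of the pathway and of neighbouring processes or families, were taken from 8 lists. SLC3A2 is counted in both the transporter list and the NRF2 and glutathione list. For single genes of these lists not every called difference is printed, so a group left unnamed was not always unchanged. Among 17 aminoacyl-tRNA synthetases, which load amino acids onto tRNA, 12 fell and 0 rose in sibcat (median -0.26), 8 fell and 2 rose in siTAZ (median -0.11), and 3 fell and 6 rose in APC (median 0.11). In sibcat IARS1 fell by 0.86, YARS1 by 0.51 and FARSB by 0.47 (adjusted p from 2.45e-10 to 1.94e-06). LARS1, which loads leucine, fell by 0.72 in siTAZ and rose by 0.67 in APC (adjusted p = 5.90e-08 and 8.36e-08). In APC the 3 that fell were WARS1 (-0.41), GARS1 (-0.39) and SARS1 (-0.30). APC against sibcat gave 11 of the 17 higher and 1 lower.

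Of 17 amino acid transporters other than SLC7A11, 10 fell and 4 rose in sibcat (median -0.30), 7 fell and 4 rose in APC (median -0.12), and 3 fell and 3 rose in siTAZ (median -0.05). The glutamine transporters SLC38A1 and SLC1A5 fell by 1.66 and 1.63 in sibcat (adjusted p = 1.86e-12 and 3.15e-08) and each by 0.66 in APC. SLC1A3, a glutamate transporter, fell by 0.94 in sibcat and 0.93 in APC and rose by 0.58 in siTAZ (adjusted p = 2.03e-09, 2.05e-09 and 1.23e-06), the same directions as SLC7A11. SLC7A5, the light chain of the large neutral amino acid transporter, fell by 2.27 in siTAZ (10.68 to 8.41, SE 0.049, adjusted p = 8.87e-15). It also fell by 0.53 in sibcat (adjusted p = 1.71e-07) and rose by 0.36 in APC (adjusted p = 1.46e-05). SLC3A2, the heavy chain that pairs with both SLC7A5 and SLC7A11, fell by 0.35 in siTAZ, 0.64 in sibcat and 0.29 in APC (adjusted p = 5.37e-05, 4.52e-08 and 2.88e-04). SLC38A2, another transporter known to respond to amino acid loss, rose by 0.59 in sibcat and fell by 0.36 in APC (adjusted p = 4.44e-07 and 1.02e-04). SLC1A1, a further glutamate transporter, rose by 0.94 in siTAZ and 0.78 in sibcat (adjusted p = 8.11e-08 and 4.21e-07).

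Of 17 amino acid and one-carbon enzymes other than ASNS, PHGDH and PSAT1, 7 fell and 2 rose in sibcat (median -0.17), 4 fell and 2 rose in siTAZ (median -0.15), and 4 fell and 3 rose in APC (median -0.02). CTH, which makes cysteine from cystathionine, fell by 1.66 in sibcat, fell by 1.64 in APC and rose by 0.52 in siTAZ (adjusted p = 1.30e-07, 1.58e-07 and 0.0136). SHMT2, the mitochondrial enzyme that turns serine into glycine, fell by 0.52 in sibcat and 0.65 in APC (adjusted p = 2.34e-07 and 1.28e-08). PSPH, the last step of serine synthesis, fell by 0.74 in siTAZ (adjusted p = 0.00132), the group in which PHGDH was not called. BCAT2 rose by 0.73 and GLUL, glutamine synthetase, by 0.60 in sibcat (adjusted p = 2.53e-08 and 9.45e-06).

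Of 18 further stress transcription factors and feedback genes, 5 fell and 5 rose in sibcat (median -0.04), 7 fell and 3 rose in APC (median -0.15), and 5 fell and 6 rose in siTAZ (median -0.01). CEBPG, a partner of ATF4, fell by 0.64 in sibcat (adjusted p = 3.16e-09). GDF15, a secreted stress hormone, rose by 0.89 in siTAZ and fell by 0.66 in sibcat and 0.72 in APC (adjusted p = 6.98e-08, 1.47e-06 and 5.16e-07). XPOT, which exports tRNA from the nucleus, fell by 1.06 in APC, 0.59 in siTAZ and 0.45 in sibcat. DDIT4, an inhibitor of mTORC1 that stress can induce, rose by 0.95 in sibcat and 0.16 in APC (adjusted p = 1.39e-10 and 0.0164), opposite to the 10 genes there. CEBPB rose by 0.57 in sibcat, 0.60 in APC and 0.30 in siTAZ. TXNIP, which binds thioredoxin, rose by 1.11 in sibcat and fell by 0.60 in siTAZ (adjusted p = 2.60e-11 and 8.59e-08). SQSTM1, an autophagy receptor, rose by 0.79 in siTAZ and 0.35 in sibcat and fell by 0.18 in APC (adjusted p = 1.97e-09, 1.47e-05 and 0.00557).

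Upstream, 7 of 21 genes for eIF2, its kinases and translation control fell and 3 rose in sibcat, 7 fell and 5 rose in APC, and 9 fell and 2 rose in siTAZ (medians -0.13, -0.06 and -0.10). EIF2S1, the subunit of eIF2 that is phosphorylated, fell in all 3 groups, by 0.62 in sibcat, 0.28 in siTAZ and 0.21 in APC (adjusted p = 2.57e-08, 2.33e-04 and 0.00302). EIF2AK4, the kinase GCN2 that senses uncharged tRNA, rose by 0.36 in sibcat (adjusted p = 4.59e-04), and EIF2AK3, the kinase PERK of the endoplasmic reticulum, fell by 0.34 in APC with overlapping arrays (adjusted p = 0.0379). EIF2B2 fell by 0.94 in siTAZ (adjusted p = 1.27e-09).

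Chaperones and other arms of the unfolded protein response split differently from the 10 genes. Of 18, 5 rose and 1 fell in sibcat (median 0.09), 6 rose and 6 fell in APC (median -0.03), and 5 rose and 5 fell in siTAZ (median 0.04). DNAJB9 rose by 0.69, SDF2L1 by 0.44 and CALR by 0.42 in sibcat (adjusted p from 4.65e-06 to 1.35e-05), while PDIA6 fell by 0.17. ERN1, the sensor IRE1, fell by 0.76 in APC and 0.50 in siTAZ (adjusted p = 6.45e-06 and 5.93e-04), and DNAJB9 fell by 0.53 in APC.

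SLC7A11 is also a target of NRF2, the factor of the oxidative stress response. Of 18 NRF2 and glutathione genes, 5 rose and 4 fell in siTAZ (median 0.07), 6 rose and 6 fell in sibcat (median -0.06), and 3 rose and 5 fell in APC (median 0.04). HMOX1 rose by 1.05 in siTAZ and 0.64 in sibcat and fell by 0.50 in APC (adjusted p = 3.21e-08, 5.55e-06 and 8.87e-05), and NQO1 rose by 0.50 and 0.53 in the siRNA groups. GGCT fell by 0.69 in sibcat and GSR fell by 0.93 in siTAZ (adjusted p = 4.50e-08 and 3.99e-04). CHAC2, the paralog of CHAC1, fell by 0.83 in siTAZ and, with overlapping arrays, by 0.44 in sibcat (adjusted p = 2.90e-05 and 0.00599).

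Among 8 relatives and partners of VLDLR, 1 fell and 3 rose in APC, 1 fell and 2 rose in sibcat, and 0 fell and 2 rose in siTAZ. LRP8, the closest relative and the other reelin receptor, fell by 0.46 in APC and 0.30 in sibcat (adjusted p = 1.95e-05 and 0.00112). MYLIP, the ubiquitin ligase that sends VLDLR for degradation, rose in all 3 groups, by 1.09 in siTAZ, 0.48 in sibcat and 0.51 in APC (adjusted p from 4.85e-09 to 3.26e-05).

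**Figure D4:**
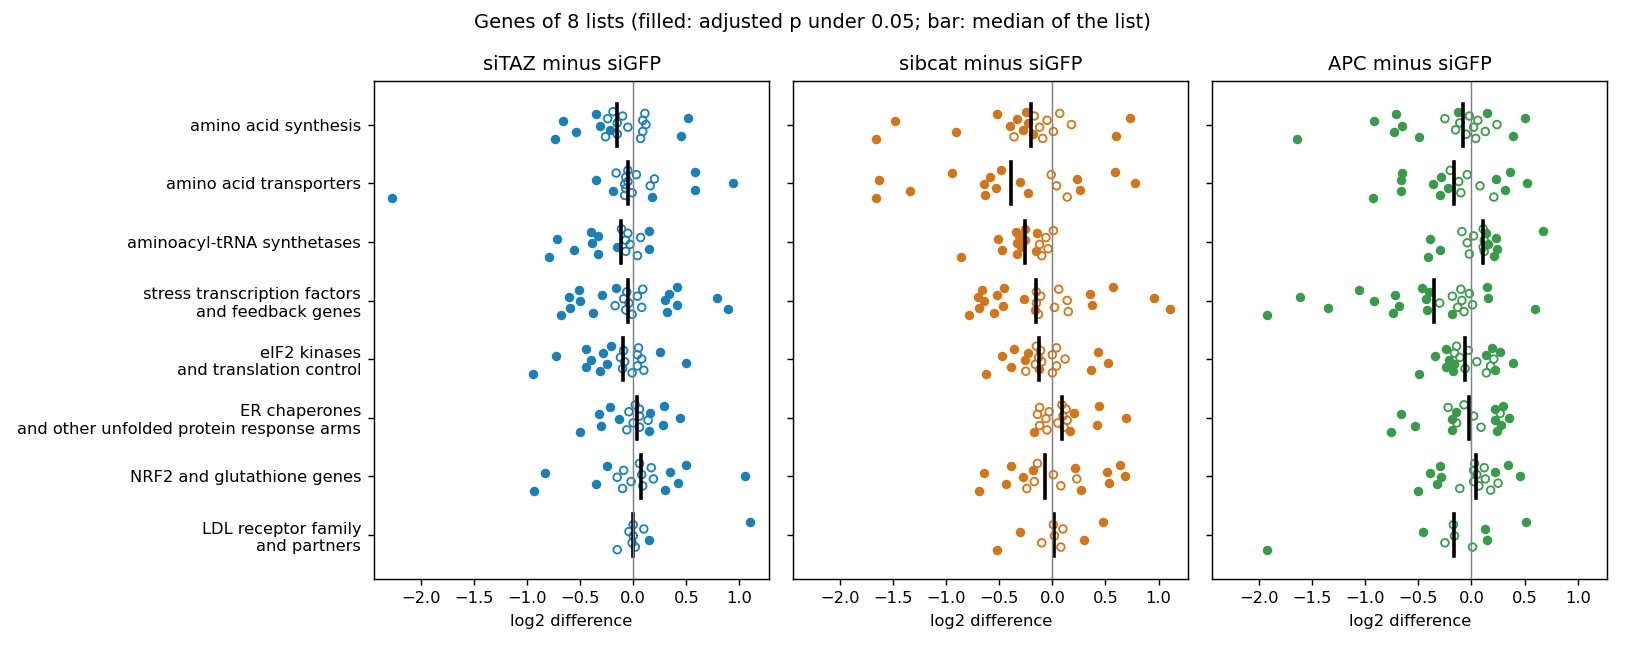
Log2 difference from siGFP (horizontal axis) of each analysed gene in 8 lists (rows), with the 10 genes included where listed; filled points passed the adjusted p threshold of 0.05, open points did not, and black bars are list medians. The median of the aminoacyl-tRNA synthetases lies at -0.26 in sibcat and at 0.11 in APC, and that of the endoplasmic reticulum chaperones at 0.09 in sibcat.

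The TGATGNAA letters were unevenly shared among these lists. They were in the start regions of 6 of 14 aminoacyl-tRNA synthetases, 6 of 15 amino acid transporters, 4 of 14 enzymes and 6 of 23 stress factors, counting analysed genes with a window and including the 10 where listed. They were in 1 of 17 genes of the eIF2 list, 0 of 17 of the chaperone list and 0 of 8 of the VLDLR family list, against 3.61% of all analysed genes with a window. The first 4 lists without the 10 genes, a grouping chosen after their values were seen, held 19 genes with the letters and 38 without. In sibcat 13 of the 19 fell and 0 rose, with IARS1, SLC38A1, SLC1A5, SLC1A3, SLC3A2 and CEBPG among them, and 13 of the 38 fell and 10 rose (medians -0.33 and -0.08). In APC 9 of the 19 fell and 2 rose, against 11 and 11 of the 38, and in siTAZ 7 fell and 3 rose, against 10 and 9. Over all 556 analysed genes with the letters, 15.3% fell in sibcat, against 18.4% of the 14828 without. The shares that fell were 14.7% against 17.8% in APC and 11% against 14.2% in siTAZ. Whether the letters account for the differences within the lists was not tested.

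The genes most like 4 of the 10 in pattern were found by Pearson correlation over the 16 arrays among 12579 genes that reached the median level. These are descriptions, and the arrays share group membership. For ASNS they were BCL2L2 (r = 0.979), HMGB3 (0.973) and MTPN (0.972). For SLC7A11 they were CDX2 (0.993), HSPA12A (0.992) and PERP (0.991); CDX2, an intestinal transcription factor, averaged 7.04 in siTAZ, 6.56 in siGFP, 6.12 in APC and 5.59 in sibcat, the same order. For DDIT3 they were ID2 (0.992), PRAG1 and CST7 (both 0.989), with ID2 at 11.94 in siGFP, 11.92 in siTAZ, 10.47 in sibcat and 7.92 in APC. For VLDLR they were FGF13 and ASB4 (both 0.993) and NTRK2 (0.992), and NTRK2 averaged 8.97 in siGFP, 8.91 in siTAZ, 7.92 in sibcat and 4.33 in APC.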

How the data were processed

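Total RNA from 16 SW480 samples was labelled and hybridised to Affymetrix U133 Plus 2.0 arrays, per the labels' protocols. The authors deposited log2 expression values per probe set, made with RMA per the submitters' processing notes, which name no version. The values run from 1.80 to 14.56, and base 2 was inferred from this range. RMA aligns the distributions of all arrays and so hides any change in the total RNA of a cell. From these values, the brightest probe set with a single annotated gene stood for each of 19775 genes, and 41097 of 54675 probe sets had a single gene. Symbols come from the platform annotation.

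All 16 arrays entered 1 limma 3.58.1 fit (R 4.3.3) with lmFit and eBayes, without a block, over 6 comparisons; p-values were adjusted by Benjamini-Hochberg within a comparison over all genes. A second fit took all 54675 probe sets. The script was tested on simulated data. Alternatives were other scalings, probe set choices, filters, covariates, a replicate block, and leaving out each array. Letters were checked for pairing by correlating array deviations from group means: every same-letter correlation was over 0.1 in 4 comparisons (lowest 0.124 for sibcat and 0.13 for APC against siGFP), but not for siTAZ against siGFP (lowest 0.092) or siTAZ against APC (0.084). Same-letter pairs were not consistently closer than pairs of different letters. For sibcat against siGFP, A gave 0.124 with its own letter and up to 0.341 with another, and C gave 0.403 and 0.344. For APC against siGFP, A gave 0.13 and 0.273, and B gave 0.345 and 0.03. The check therefore does not settle whether the letters pair the arrays.

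The 10 genes and the lists were chosen with earlier results of these data known. The rule for named genes took the 10, the targeted genes, up to 3 per direction and list with the largest called difference from siGFP, and the 3 most like ASNS, DDIT3, SLC7A11 and VLDLR; not all of these are printed. The markers EPCAM, KRT20, CDH17, LGALS4, CDX1, COL1A1, PECAM1, PDGFRB and PTPRC fall outside it and were chosen after their values were seen. Of the listed genes, those without a single-gene probe set were not analysed here.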

Additional observations from a re-analysis of the deposited data

Results flagged for a closer look

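Of 40 combinations of gene and group, 2 held an array that stood apart from the other 3 by Dixon's criterion, which chance meets in about 1 of 20. ATF4 in sibcat C was 11.18, against 11.21 in each of the other sibcat arrays. DDIT3 in siGFP D was 8.45, against 8.69 to 8.70 in the other siGFP arrays.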

How the results depend on the processing

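Each difference of the 10 genes in the 6 comparisons was recomputed under up to 29 alternatives. Of 1728 values, 1681 kept their direction and side of the threshold, 25 kept their direction and lost the call, 6 gained one and 16 turned sign. The replicate block left the counts of genes called at 7, 10 and 10 for siTAZ, sibcat and APC against siGFP and at 8, 8 and 7 for siTAZ against sibcat, APC against sibcat and siTAZ against APC, and changed no call of the 10 genes. Without probe sets whose names mark possible cross-hybridisation or shared transcripts (_s_at, _x_at, _a_at), 8 genes kept a value: PSAT1 and VLDLR had none, and ASNS and ATF3 were read from probe sets below the median level. The counts were then 4 in siTAZ, 6 in sibcat and 6 in APC against siGFP, 5 for siTAZ against sibcat and 4 for APC against sibcat. In that setting ATF3 differed by -0.07 and ASNS by -0.04 for siTAZ against sibcat, and ASNS by -0.12 for siTAZ against APC, which was -0.03 with the mean of its probe sets. Among these, only ASNS for siTAZ against sibcat was called with its brightest probe set (0.81). All other sign changes were in differences that were not called. DDIT3 for siTAZ against siGFP was 0.01 after another quantile normalization and -0.07 to 0.02 without single arrays. VLDLR for siTAZ against siGFP was 0.04 in replicates A and B alone. PSAT1 for siTAZ against APC was 0.02 in A and B alone, 0.08 with the ACTB covariate and -0.11 to 0.01 without single arrays, and CHAC1 there was -0.09 to 0.01. The mean of both PSAT1 probe sets gave -0.39 there (adjusted p = 0.00693) and lost the call for siTAZ against sibcat (0.25, adjusted p = 0.0868). In replicates A and B alone CHAC1 lost its calls in siTAZ and APC against siGFP (adjusted p = 0.0801 and 0.0855). TRIB3 in sibcat lost its call under 7 alternatives. Signal near background limits CHAC1 and the dim probe sets.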
